A study of Mus musculus with 8 samples.

Results

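The mitochondrial carriers are the Slc25 family, proteins that move metabolites, nucleotides, cofactors and ions across the inner membrane of mitochondria. Members were taken as the protein-coding genes of the deposited expression table whose symbol begins with Slc25a, together with the uncoupling proteins Ucp2 and Ucp3 and the outer-membrane relatives Mtch1 and Mtch2. These were 51 of the 54532 genes in the table. RNA was measured by sequencing in whole mouse hearts taken at postnatal day 4, with 4 libraries in each of 2 groups that the series calls biological replicates. Control hearts had the genotype Mrps5 fl/+ and cHET hearts the genotype Mrps5 fl/+; Myh6-Cre, so both groups carried the floxed allele and neither was treated. Both came from a cross of Mrps5 fl/fl with Myh6-Cre animals and were littermates. The strain is not given in the sources used here. Cre was driven by the promoter of Myh6, a gene of cardiomyocytes, and per the labels it removes 1 allele of Mrps5, a mitochondrial ribosome gene of the small subunit, from a late embryonic stage. Other cells of these whole hearts keep both alleles, and there was no group with Cre alone, so the allele's loss and the presence of Cre cannot be told apart. The question for the carriers was whether their transcripts differed between the 2 genotypes.

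Most carriers share a fold built from repeated units that each span the inner membrane with a pair of helices. They open alternately to the space between the membranes and to the matrix, and so exchange one solute for another or carry it together with protons. They are encoded in the nucleus, made in the cytosol and inserted by the TIM22 complex. In the heart the best known are the ADP/ATP carriers, which export the ATP made by oxidative phosphorylation, and the phosphate carrier, which supplies phosphate for its synthesis.

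Values are FPKM, fragments scaled by gene length and library total, so that levels of genes of different length can be set side by side. Groups were compared with limma on log2(FPKM + 1) across the 13029 genes with a mean of at least 1 FPKM, with Benjamini-Hochberg adjustment over all of them. P-values set the difference between groups against the spread within groups of these 8 libraries, moderated across all genes tested. A difference is the mean log2 value of cHET minus that of control, genes are counted as higher or lower in cHET by its sign, and a gene passed the test at an adjusted p under 0.05. Libraries held 15490622 to 19234777 reads assigned to genes, rebuilt from the FPKM. In whole hearts, fewer cells of a type and less RNA per cell cannot be told apart.

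The targeted gene did not separate the groups. Mrps5 (ENSMUSG00000027374, chromosome 2, 127587222 to 127606829 on the plus strand, GRCm38) stood at 11.6, 6.27, 10.1 and 5.15 FPKM in control libraries 1 to 4 and at 6.84, 7.12, 6.995 and 7.68 FPKM in cHET libraries 1 to 4. The cHET values lay inside the range of the controls. The means were 8.27 ± 3.05 and 7.16 ± 0.365 FPKM (SD, n = 4; exact two-sided permutation test, p = 0.486). The 10 cardiomyocyte markers summed to 20640 to 24560 FPKM in control and 19370 to 22760 in cHET, with 1362 to 2917 FPKM of Myh6 over all libraries. Some libraries stood apart by markers of other tissue. The brown fat gene Ucp1 stood at 17.8, 16.7, 0.0387 and 0.149 FPKM in control 1 to 4 and at 0.286, 6.56, 0 and 1.62 FPKM in cHET 1 to 4, so that control 1, control 2 and cHET 2 held the most. Control 1 and control 2 also had the largest FPKM totals over all genes, 450264.5 and 467217.0, beside 353290.9 to 392047.1 elsewhere. Analyses without the libraries rich in Ucp1 leave out both, so Ucp1 and the totals cannot be told apart there. Summed red cell markers reached 8418 FPKM in control 2 and lay between 1024 and 2759 FPKM elsewhere. Summed atrial markers were 79.0 FPKM in cHET 3 and 803 to 4293 FPKM in the other 7. Between groups, all 6 cell cycle markers were higher in cHET, with sums of 55.8 to 83.2 FPKM in control and 93.3 to 140 in cHET. All 6 epicardial markers were lower on the log2 scale (sums 39.6 to 87.5 and 16.9 to 37.5 FPKM), though Wt1 had means of 2.92 and 2.93 FPKM. Lower in cHET too were all 7 tested leukocyte markers (sums 79.4 to 168 and 60.5 to 94.9 FPKM), all 6 fibroblast markers (374 to 577 and 353 to 567 FPKM) and all 3 tested neutrophil markers (8.23 to 71.8 and 9.03 to 15.8 FPKM). Of the 10 cardiomyocyte markers 8 were lower and 2 higher. The groups did not overlap for 2 of those lower, beside 2.00% of all genes tested in that direction. These were Mb, which encodes myoglobin, at -0.49 (limma, adjusted p = 0.419), and Pln, which encodes phospholamban, at -0.48 (limma, adjusted p = 0.486). Nor did the groups overlap for 5 of the 6 cell cycle markers, higher in cHET (2.74% of all genes), and 1 epicardial marker, Msln, lower in cHET. No gene of these 6 marker lists passed the test, and the part of these shifts in the carrier values was not tested.

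No carrier passed the test between cHET and control. Of the 51 members, 40 reached a mean of 1 FPKM and were tested, and 0 had an adjusted p under 0.05 with limma, against 3 of all 13029 genes (0.0230%). With limma voom on the rebuilt reads the count was also 0. Without adjustment, 2 members had p under 0.05, both lower in cHET: Ucp3, an uncoupling protein of muscle and brown fat, and Slc25a34, a carrier whose substrate is not settled. That is 5.0% of the tested members, beside 8.95% of all genes in either direction and 3.92% in the lower direction. Of the 40, 18 were higher and 22 lower in cHET, with a median difference of -0.01 beside 0.01 over all genes tested. The median size of a difference, whatever its sign, was 0.09 for the carriers and 0.11 for all genes. Apart from Ucp3 and Slc25a34, the 38 others lay between -0.253 and 0.254 on the log2 scale, and their lowest adjusted p was 0.578. Standard errors ran from 0.07 to 0.31, with a median of 0.11.

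**Figure D1:**
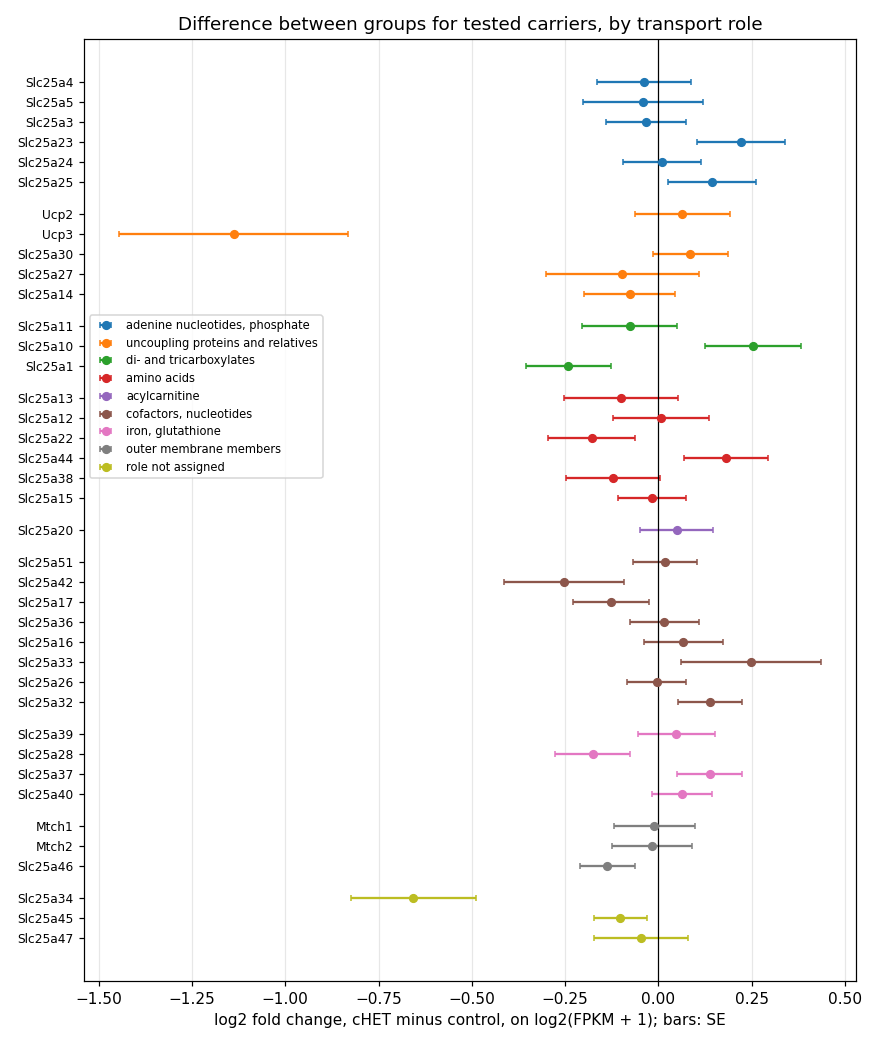
Difference between groups (cHET minus control on log2(FPKM + 1), horizontal axis) with its standard error for 39 of the 40 tested carriers, grouped by what they transport. Ucp3 at -1.14 and Slc25a34 at -0.66 lie outside the range of -0.253 to 0.254 that holds the others.

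Values of the groups did not overlap for 3 tested members, 7.5% of them, beside 4.74% of all genes tested. Slc25a34 and Slc25a45 lay lower in every cHET library (2.00% of all genes in that direction), and Slc25a23 lay higher (2.74%).

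Ucp3 and Slc25a34 showed the largest differences, and the stretch of 250 bases before the start of each gene is shown with that of Ucp2, the neighbour of Ucp3, whose difference was 0.06. Sequences are from RefSeq (GRCm38.p6), run 5′ to 3′ on the strand of the gene and end at the base before the start site that RefSeq gives, which differs from the table's gene bounds by 1 to 21 bases here. The Ucp3 stretch is chr7:100472741-100472990 on the plus strand, the Ucp2 stretch is chr7:100493108-100493357 on the plus strand, and the Slc25a34 stretch is chr4:141623835-141624084 on the minus strand. Capitals mark AGGTCA, the core motif of many nuclear receptors, and GGGCGG, the GC box, each on either strand, so that they can also read TGACCT and CCGCCC.
Ucp3: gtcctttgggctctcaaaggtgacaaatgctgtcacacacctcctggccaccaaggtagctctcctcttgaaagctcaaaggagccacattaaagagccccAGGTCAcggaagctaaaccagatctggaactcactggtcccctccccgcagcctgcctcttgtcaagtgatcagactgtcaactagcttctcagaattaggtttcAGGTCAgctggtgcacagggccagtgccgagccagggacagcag
Ucp2: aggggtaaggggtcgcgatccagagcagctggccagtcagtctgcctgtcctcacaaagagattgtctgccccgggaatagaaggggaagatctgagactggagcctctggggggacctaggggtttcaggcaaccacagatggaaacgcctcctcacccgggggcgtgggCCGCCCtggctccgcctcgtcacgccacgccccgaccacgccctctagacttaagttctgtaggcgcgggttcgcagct
Slc25a34: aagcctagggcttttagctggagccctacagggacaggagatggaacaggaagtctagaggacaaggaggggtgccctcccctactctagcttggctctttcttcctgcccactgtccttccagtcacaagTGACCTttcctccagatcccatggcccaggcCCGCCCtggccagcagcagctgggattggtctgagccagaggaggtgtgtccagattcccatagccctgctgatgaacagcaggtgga
The Ucp3 stretch held 2 copies of AGGTCA, which begin 149 and 44 bases before the start, and no GC box. Slc25a34 held 1 AGGTCA on the opposite strand 119 bases before the start and 1 GC box, and Ucp2 held 1 GC box and no AGGTCA. Of 51 such stretches found for 40 members, 6 held AGGTCA (11.8%), beside 14% of 32851 stretches of the same length over all genes. Other genes among these 6 were Slc25a45, Slc25a39, Slc25a47 and Mtch2. The GC box was in 70.6% of the members' stretches and in 32.7% of all, the CCAAT box in 41.2% and 33.8%, and the TATA box, searched as TATAAA, in 3.92% and 12.4%. The E-box CACGTG was in 15.7% and 6.02%. A longer form of the AGGTCA motif, TNAAGGTCA, was in 0 of the members' stretches and in 1.14% of all, and a direct repeat of 2 such motifs spaced by 1 base was in 0 and 0.338%. The MEF2 motif was in 3.92% and 3.20%. These 8 motifs were chosen after the members' values were seen, all were searched on both strands, and a match describes letters and not binding.

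Levels of the tested members ran from a mean of 1729 FPKM for Slc25a4 to 1.72 FPKM for Slc25a14. Averaged over the 8 libraries, 4 carriers stood above 100 FPKM, 17 between 10 and 100, 19 between 1 and 10, and 11 below 1. The family summed to 3219 ± 224 FPKM in control hearts and 3119 ± 191 FPKM in cHET hearts (SD, n = 4). As a percentage of the FPKM of all genes, the means lay in the other direction, at 0.786 ± 0.0522 and 0.817 ± 0.0612 (SD, n = 4). These percentages ran from 0.741 to 0.844 in control and from 0.760 to 0.885 in cHET. The 4 control libraries summed to 2981 to 3463 FPKM and the 4 cHET libraries to 2945 to 3346, so the groups overlapped. Slc25a4 alone gave 53.5% to 55.4% of the sum in every library, and Slc25a4, Slc25a5 and Slc25a3 together gave 77.2% to 79.7%.

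**Figure D2:**
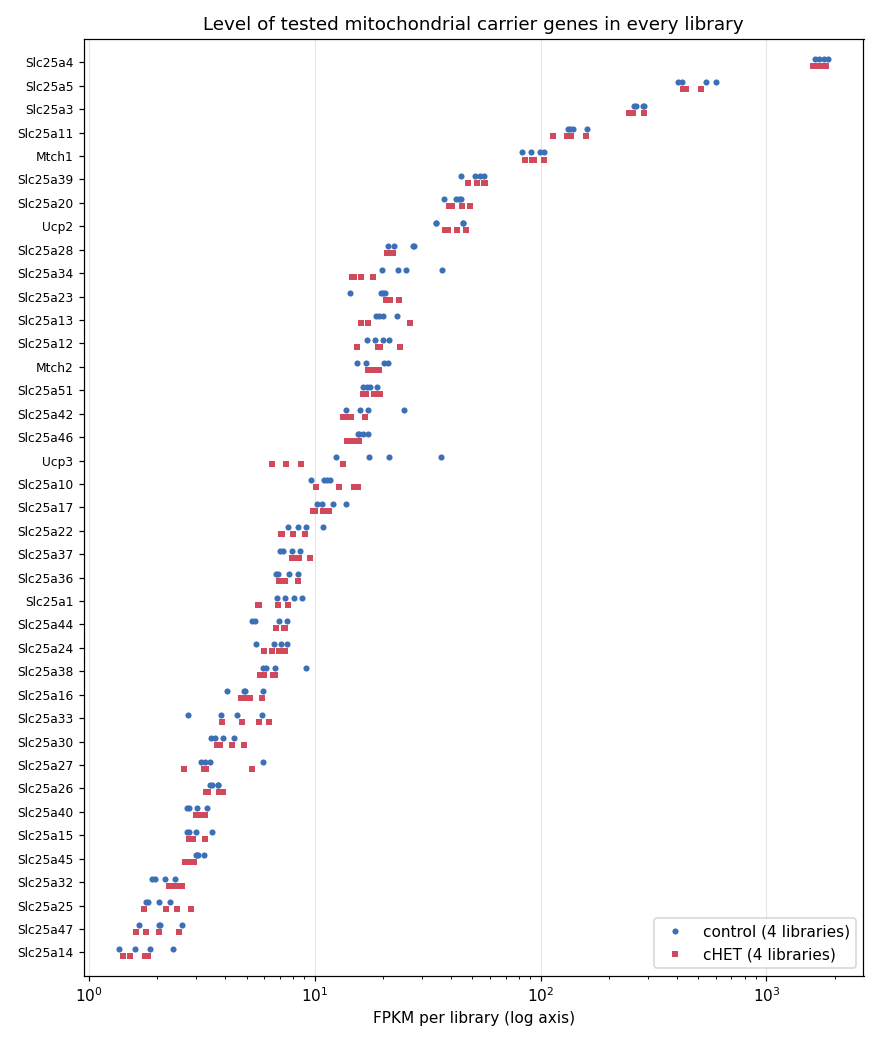
FPKM of 39 of the 40 tested carriers in every library (log axis), ordered by the mean over all 8 libraries, with control as circles and cHET as squares. Levels run from Slc25a4, at 1601 to 1873 FPKM, down to Slc25a14, at 1.37 to 2.36 FPKM, and the groups lie on top of each other for most genes.

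The adenine nucleotide and phosphate carriers were the most abundant group, and none passed the test. Slc25a4, the ADP/ATP carrier of heart and muscle, stood at 1792, 1873, 1709 and 1636 FPKM in control 1 to 4 and at 1652, 1601, 1826 and 1746 FPKM in cHET 1 to 4. The groups overlapped throughout, and the difference was -0.04 (SE 0.13; limma, adjusted p = 0.928). Slc25a5, the ADP/ATP carrier found in most dividing tissues, stood at 541, 600.5, 424 and 404 FPKM in control and at 427, 439, 515 and 514 FPKM in cHET. Its 2 highest values were in control 1 and control 2, and the difference was -0.04 (SE 0.16; limma, adjusted p = 0.938). The level of Slc25a4 was therefore 3.31, 3.12, 4.03 and 4.05 times that of Slc25a5 in control, and 3.87, 3.65, 3.55 and 3.40 times in cHET. The mean ratios were 3.63 ± 0.483 and 3.62 ± 0.198 (SD, n = 4), and the spread between controls exceeded any gap between groups. Without control 1, control 2 and cHET 2, the libraries with over 5 FPKM of Ucp1, the log2 ratio of cHET minus control was -0.17, in place of 0.00 over all 8. Slc25a3, the phosphate carrier, stood at 288, 285, 265 and 260 FPKM in control and at 256, 245, 286 and 287 FPKM in cHET, a difference of -0.03 (SE 0.11; limma, adjusted p = 0.927). The signs of Slc25a4 and Slc25a3 changed when FPKM were rescaled to a fixed library sum, at 0.06 and 0.07. The median over all genes tested was then 0.101, in place of 0.01. Slc25a4 stood at 0.27 after quantile normalization (limma, adjusted p = 0.565).

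**Figure D3:**
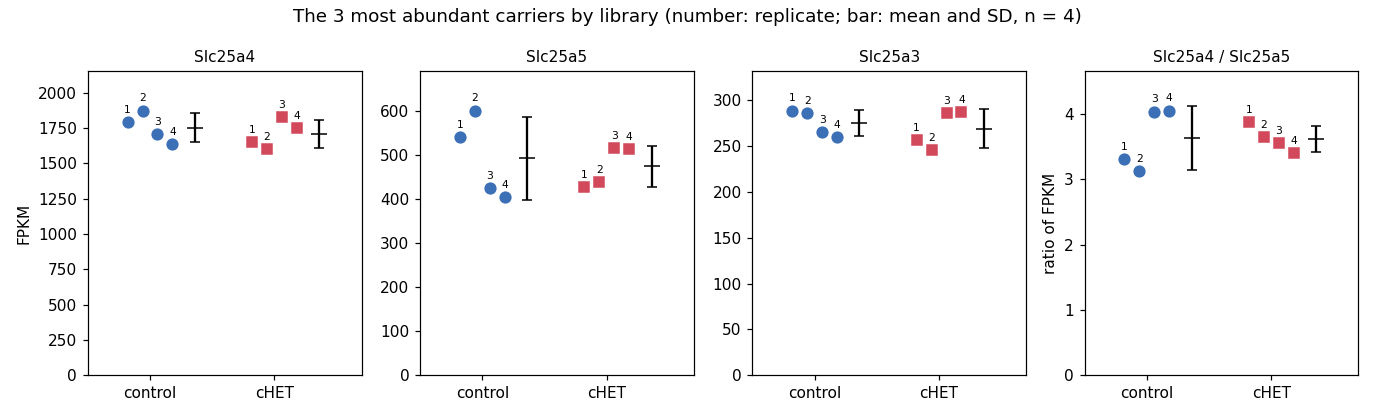
FPKM of Slc25a4, Slc25a5 and Slc25a3 in each library and the ratio of Slc25a4 to Slc25a5 (last panel), with the replicate number above each point and the mean and SD of 4 libraries beside it. All axes start at 0, the groups overlap in every panel, and control 1 and control 2 have the lowest ratios, 3.31 and 3.12.

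The calcium-regulated ATP-Mg/phosphate carriers adjust the adenine nucleotide pool of the matrix. Slc25a23 (ENSMUSG00000046329) stood at 19.8, 14.3, 20.4 and 20.1 FPKM in control 1 to 4 and at 20.8, 20.8, 21.5 and 23.7 FPKM in cHET 1 to 4. All 4 cHET values lay above all 4 controls, by a margin of less than 1 FPKM between the nearest 2, and control 2 lay far below the other controls. The means were 18.6 ± 2.90 and 21.7 ± 1.38 FPKM (SD, n = 4), a difference of 0.22 (SE 0.12; limma, adjusted p = 0.614), and 0.11 without control 2. The groups overlapped when FPKM were rescaled to a fixed library sum or without the mitochondrial genome. There are 2 genes that overlap Slc25a23 on the other strand, Crb3 and the antisense gene Gm17168, at means of 0.68 and 2.11 FPKM. Of its relatives, Slc25a24 had means of 6.68 and 6.71 FPKM in control and cHET, and Slc25a25 of 1.99 and 2.32. Slc25a41 had 4 reads in all 8 libraries together. Slc25a31, the ADP/ATP carrier of the male germ line, had 1 to 20 reads per library. Neither of these last was tested.

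Among the uncoupling proteins and their relatives, Ucp3 stood out. Ucp3 (ENSMUSG00000032942, chromosome 7, 100472990 to 100486432 on the plus strand) stood at 36.3, 12.4, 17.5 and 21.4 FPKM in control 1 to 4 and at 13.3, 8.69, 7.49 and 6.48 FPKM in cHET 1 to 4. Control 1 was the highest library by far, and 3 of 4 cHET libraries lay below every control, while cHET 1 exceeded control 2. The means were 21.9 ± 10.3 and 9.0 ± 3.03 FPKM (SD, n = 4), a ratio of 0.411, and 353 to 1767 reads per library lay behind them. The difference was -1.14 (SE 0.31; limma, unadjusted p = 0.00481, adjusted p = 0.357), so Ucp3 did not pass. Over 22 alternative analyses it ran from -1.36 to -0.87, with an adjusted p of 0.123 to 0.845. Its value without control 1 was -0.87.

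Ucp3 is also expressed in brown fat, and the libraries differed in Ucp1 as given above. Among the 5 libraries with Ucp1 under 5 FPKM, Ucp3 stood at 17.5 and 21.4 FPKM in control 3 and 4 and at 13.3, 7.49 and 6.48 FPKM in cHET 1, 3 and 4. These values did not overlap, as was so for 25.4% of all genes in these 5 libraries, and the difference was -1.07 (limma, adjusted p = 0.496). In control 3 and cHET 3, where Ucp1 was 0.0387 and 0 FPKM and Adipoq 0, Ucp3 was 17.5 and 7.49 FPKM. Those libraries also differed in summed atrial markers, at 3386 and 79.0 FPKM, and in sex, male and female. The summed brown fat list was 24.7 to 64.2 FPKM in control and 29.0 to 43.9 in cHET. Of this sum the gene Cidea gave 24.5 to 36.45 FPKM in every library, with a mean of 30.3 FPKM in each group, so the sum varied far less than Ucp1. The part of brown fat in the Ucp3 difference was not tested. By Xist and Ddx3y, control 1, control 3 and cHET 1 were males. Ucp3 was 36.3 and 17.5 FPKM in the control males and 13.3 in the cHET male, and 12.4 and 21.4 FPKM in the control females and 6.48 to 8.69 in the 3 cHET females. With sex in the fit the difference was -0.97 (limma, adjusted p = 0.524). The antisense gene Gm10603 overlaps Ucp3 at a mean of 1.08 FPKM.

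Ucp2 encodes a widely expressed uncoupling protein and lies 6904 bases downstream of Ucp3. It stood at 34.5, 34.3, 45.5 and 45.3 FPKM in control and at 46.9, 37.6, 42.5 and 38.9 FPKM in cHET, with the 2 lowest values in control 1 and control 2. The means were 39.9 ± 6.37 and 41.5 ± 4.14 FPKM (SD, n = 4; difference 0.06, SE 0.13; limma, adjusted p = 0.877). Ucp2 was 0.949 to 2.76 times as abundant as Ucp3 in the control libraries and 3.51 to 6.0 times in cHET. These ranges did not overlap, with means of 2.11 ± 0.819 and 4.88 ± 1.17, though the values of Ucp3 itself did. The ratio restates the Ucp3 difference, and no share of such ratios over all genes was taken. Of the other relatives, Slc25a27 reached 5.92 FPKM in control 1 and 5.29 FPKM in cHET 1. It stood at 2.63 to 3.46 FPKM in the other 6 libraries, and its group difference was -0.10. Slc25a14 had means of 1.80 and 1.64 FPKM and Slc25a30 of 3.87 and 4.17. After Ucp3 and Slc25a34, with coefficients of variation of 63.6% and 34.9% over the 8 libraries, Slc25a27 varied most among tested members, at 30.7%. The lowest coefficient, 5.61%, was that of Slc25a4.

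**Figure D4:**
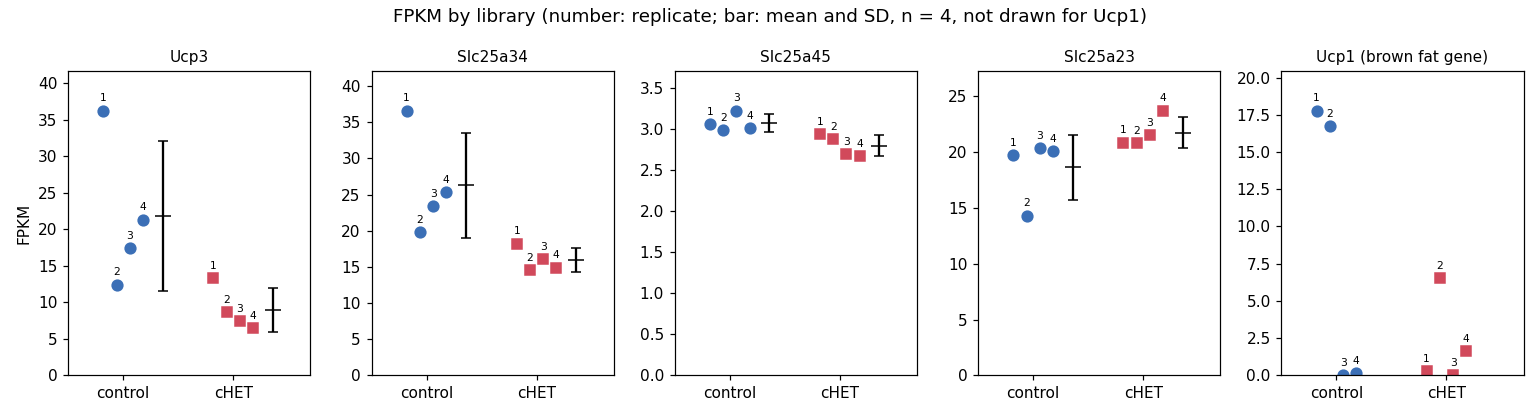
FPKM by library (vertical axes start at 0) for Ucp3 and the 3 members whose groups did not overlap, with the brown fat gene Ucp1 in the last panel, replicate numbers above the points and, except for Ucp1, the mean and SD of 4 libraries beside them. Ucp3 and Slc25a34 are highest in control 1, and Ucp1 is highest in control 1, control 2 and cHET 2, at 17.8, 16.7 and 6.56 FPKM.

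The carriers with no role assigned here held the other large difference. Slc25a34 (ENSMUSG00000040740, chromosome 4, 141618824 to 141623821 on the minus strand) stood at 36.6, 19.8, 23.4 and 25.3 FPKM in control 1 to 4 and at 18.2, 14.6, 16.1 and 14.9 FPKM in cHET 1 to 4. Every cHET library lay below every control, with control 2 and cHET 1 the nearest and control 1 again the highest. The means were 26.3 ± 7.26 and 16 ± 1.64 FPKM (SD, n = 4), a ratio of 0.607. The difference was -0.66 (SE 0.17; limma, unadjusted p = 0.00336, adjusted p = 0.337), so this member did not pass either. Over the 22 alternatives it ran from -0.78 to -0.49, with an adjusted p of 0.0919 to 0.845. Most of these cannot make separated groups overlap, since they only leave out libraries or keep the order of a gene's values. Of those that can, the groups overlapped with the rescaling to a fixed library sum and the scaling without the mitochondrial genome. They stayed apart with quantile normalization, scaling by the median of ratios and voom. Without control 1 the difference was -0.49, and without the 3 libraries with over 5 FPKM of Ucp1 it was -0.55.

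Slc25a45 differed by far less. It stood at 3.06, 2.99, 3.23 and 3.02 FPKM in control and at 2.94, 2.88, 2.70 and 2.67 FPKM in cHET, from 115 to 152 reads per library. All cHET values lay below all controls, though control 2 and cHET 1 differed by less than 0.1 FPKM. The difference was -0.10 (SE 0.07; limma, adjusted p = 0.676), and the values overlapped when FPKM were rescaled to a fixed library sum or without the mitochondrial genome, and in the rebuilt reads. Slc25a47, known as a liver carrier, had means of 2.10 and 2.00 FPKM. The remaining 5 of these 8 genes had means below 1 FPKM. Slc25a35, a close relative of Slc25a34, ran from 0.366 to 1.19 FPKM, Slc25a43 from 0.320 to 0.776, and Slc25a53 from 0.239 to 0.598. Slc25a48 had 5 reads in all, and Slc25a54 had 1 read, in control 2.

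The di- and tricarboxylate carriers differed in sign among themselves, and none passed. Slc25a11, the oxoglutarate carrier of the malate-aspartate shuttle, stood at 135, 160, 132 and 140 FPKM in control and at 113, 131, 159 and 136 FPKM in cHET, a difference of -0.08 (limma, adjusted p = 0.846). Slc25a10, the dicarboxylate carrier, stood at 9.67, 11.7, 11.0 and 11.3 FPKM in control and at 10.1, 12.8, 14.9 and 15.5 FPKM in cHET. Of its cHET values, 3 lay above every control while cHET 1 did not, and the difference was 0.25 (SE 0.13; limma, adjusted p = 0.595). Slc25a1, the citrate carrier, stood at 6.84, 8.78, 8.14 and 7.36 FPKM in control and at 6.92, 7.60, 5.61 and 5.67 FPKM in cHET. The 2 lowest values were in cHET 3 and 4, and the difference was -0.24 (SE 0.11; limma, adjusted p = 0.578). Slc25a21, the oxodicarboxylate carrier, had 5 reads in all.

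Amino acid carriers were measured at moderate levels, 2 of the 6 tested with higher and 4 with lower means. The aspartate/glutamate carriers Slc25a12 and Slc25a13, which are the other arm of the malate-aspartate shuttle, had nearly equal levels. Slc25a12 had means of 19.2 ± 1.88 and 19.4 ± 3.42 FPKM, and Slc25a13 of 20.3 ± 1.99 and 19.2 ± 4.85 (SD, n = 4). Both were highest in cHET 3, at 23.8 and 26.4 FPKM. Slc25a22, a glutamate carrier, had means of 9.03 and 7.83 FPKM (difference -0.18). Slc25a44, which carries branched-chain amino acids and has been studied in brown fat, stood at 5.43, 5.26, 7.0 and 7.56 FPKM in control and at 6.79, 7.32, 7.38 and 7.37 FPKM in cHET. Its 2 lowest values were in control 1 and 2, and the difference of 0.18 became -0.02 without the libraries with over 5 FPKM of Ucp1. Among these libraries cHET 2 was not low, at 7.32 FPKM, and the part of brown fat was not tested. Slc25a38, the glycine carrier of haem synthesis, was highest in control 1, at 9.16 FPKM, with means of 6.96 and 6.24. Slc25a15, an ornithine carrier, had means of 3.00 and 2.95 FPKM. Slc25a29, a carrier of basic amino acids, was the untested member nearest to the limit of 1 FPKM, at a mean of 0.919, and Slc25a14 the tested member nearest to it, at 1.72. The glutamate carrier Slc25a18 had 4 to 20 reads per library and overlaps Atp6v1e1, a gene at a mean of 27.6 FPKM, and the ornithine carrier Slc25a2 had 19 reads in all.

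Slc25a20, which brings acylcarnitines into the matrix for fatty acid oxidation, stood at 43.7, 37.6, 42.1 and 44.3 FPKM in control and at 45.0, 39.5, 48.5 and 40.7 FPKM in cHET. The groups overlapped, and the difference was 0.05 (SE 0.10; limma, adjusted p = 0.877).

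All 9 carriers of cofactors and nucleotides were tested, 6 with higher and 3 with lower means. Slc25a42, a coenzyme A carrier, stood at 24.8, 13.8, 17.2 and 16 FPKM in control and at 16.8, 14.5, 13.8 and 13.3 FPKM in cHET. Control 1 was the highest library, as for Ucp3, and the difference was -0.25 (SE 0.16; limma, adjusted p = 0.655). Slc25a33, a pyrimidine nucleotide carrier, ranged from 2.75 to 6.27 FPKM, with means of 4.25 and 5.15. Slc25a32, a folate and FAD carrier, had means of 2.11 and 2.42 FPKM (difference 0.14). Slc25a51, the NAD carrier, had means of 17.5 and 17.8 FPKM, and Slc25a26, the S-adenosylmethionine carrier, of 3.61 and 3.60. The peroxisomal carrier Slc25a17 had means of 11.7 and 10.6 FPKM, Slc25a36 of 7.45 and 7.53, and Slc25a16 of 4.94 and 5.20.

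Carriers of iron and glutathione also overlapped between groups. Slc25a28, mitoferrin 2, stood at 27.6, 27.2, 22.6 and 21.1 FPKM in control and at 21.5, 20.9, 21.5 and 22.2 FPKM in cHET. Only control 1 and control 2, with the most Ucp1, stood high, while cHET 2, also over 5 FPKM of Ucp1, was the lowest of all at 20.9 FPKM. The part of brown fat in these values was not tested. The difference was -0.18 (SE 0.10; limma, adjusted p = 0.638), and 0.00 in size without the libraries with over 5 FPKM of Ucp1. Slc25a37, mitoferrin 1, which supplies iron to red cell precursors, had means of 7.70 and 8.55 FPKM (difference 0.14). It stood at 7.01, 8.60, 7.24 and 7.93 FPKM in control and at 9.51, 8.22, 7.98 and 8.50 FPKM in cHET. Control 2, with the most red cell transcripts, was the highest control, and their part was not tested. The glutathione carriers Slc25a39 and Slc25a40 had means of 51.4 and 53.1 FPKM and of 2.97 and 3.14 FPKM.

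The 3 members of the outer membrane all had lower means in cHET by small amounts. Mtch2, an insertase for membrane proteins, had means of 18.4 and 18.1 FPKM, and Mtch1 of 94.2 and 93.3. Slc25a46, which acts in mitochondrial dynamics, stood at 16.3, 17.2, 15.6 and 15.8 FPKM in control and at 13.9, 14.9, 15.7 and 14.2 FPKM in cHET. Only cHET 3 reached the control range, and the difference was -0.14 (SE 0.07; limma, adjusted p = 0.617).

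Genes that work with the carriers were read from 6 lists of 43 genes, of which 41 were tested. None passed the test with limma, and 23 were higher and 18 lower in cHET. An unadjusted p under 0.05 was found for 3 (7.32%, beside 8.95% of all genes), and the groups did not overlap for 2 (4.88%, beside 4.74%), both of them creatine kinases. Ckmt2, the mitochondrial creatine kinase that receives ATP exported by the ADP/ATP carriers, stood at 136, 99.4, 139 and 187 FPKM in control and at 199.9, 189, 202 and 242 FPKM in cHET. All cHET values lay above all controls, and the difference was 0.59 (SE 0.18; limma, adjusted p = 0.424). Ckb, the cytosolic brain-type creatine kinase, stood at 47.2, 77.1, 67.8 and 51.6 FPKM in control and at 78.3, 79.3, 91.8 and 128 FPKM in cHET. Its groups did not overlap either, and the difference was 0.62 (SE 0.20; limma, adjusted p = 0.438). Ckm, the muscle creatine kinase, had means of 360.4 and 362 FPKM, and Ppif, which encodes cyclophilin D of the permeability pore, of 36.5 and 37.7.

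Of the 10 TIM22 import genes, 6 were higher and 4 lower. The smallest p were those of Timm8b (189 and 141 FPKM, difference -0.35) and Timm9 (10.5 and 11.7 FPKM, difference 0.15). Both are small chaperones of the space between the membranes. Only control 1 and control 2 stood high for Timm8b, at 228 and 267 FPKM. Control 3 and 4 stood at 140.5 and 120.5 FPKM, and cHET libraries at 129 to 150 FPKM. Among 9 tested transporters of other families 5 were higher and 4 lower, with Sfxn4 at -0.41 (2.73 and 1.80 FPKM; limma, adjusted p = 0.585). Of 5 carnitine shuttle genes 1 was higher and 4 lower, led by the carnitine importer Slc22a5 at -0.19 and Cpt2 at -0.11. Of 6 genes of the malate-aspartate and glycerol phosphate shuttles 4 were higher and 2 lower, with Gpd2 at 0.19 and Got1 at 0.17. Of 7 genes of haem and iron use 4 were higher and 3 lower, with the transferrin receptor gene Tfrc at 0.28 (28.9 and 35.6 FPKM; limma, adjusted p = 0.539) and Alas1 at 0.16. Alas2, counted as higher by its log2 difference of 0.21, had means of 12.9 and 12.1 FPKM, with 2.60 FPKM in control 1.

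**Figure D5:**
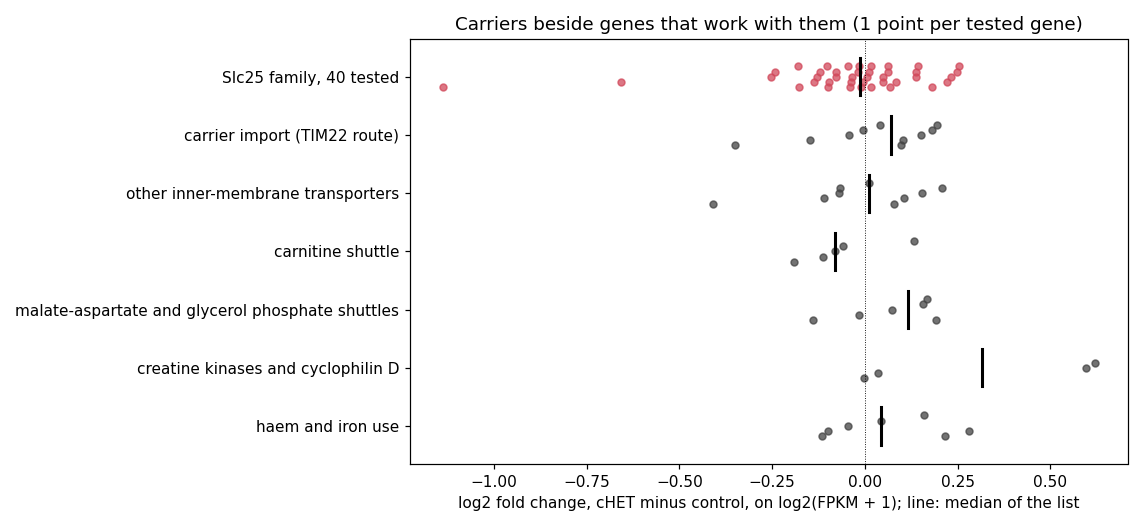
Difference between groups (cHET minus control on log2(FPKM + 1), horizontal axis) for each tested carrier and for tested genes of the 6 lists of partner genes, 1 point per gene, with a bar at each list's median. Carriers centre on -0.01, with Ucp3 and Slc25a34 far to the left, and the 2 points furthest right are Ckb at 0.62 and Ckmt2 at 0.59.

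Of the 51 members, 25 overlap another gene of the table, 19 of them tested, and whether reads were counted by strand is not given in the sources used here. The pseudogene Slc25a5-ps held at most 2 reads in a library.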

How the data were processed

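The authors deposited FPKM for each gene in each library, which corrects for gene length and depth. The submitters' processing notes name build mm9 and the tools DESeq2 1.20.0, featureCounts 1.5.0-p3 and HISAT2 2.0.5, without their roles. The table's coordinates matched GRCm38 instead: 98.3% of 54409 shared genes and 47 of the 51 carriers had the GENCODE M21 start and end, so GRCm38 is given. FPKM times the authors' gene length gave whole reads, within 0.05 reads, for 100% of values.

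Genes with a mean of at least 1 FPKM were compared between cHET and control on log2(FPKM + 1) by the two-sided test of limma 3.58.1 (R 4.3.3), with robust and trended eBayes and no covariates. Fold changes on this scale understate those of genes with low values. The limma step was tested on simulated reads. Mrps5 was also compared by an exact permutation test, which cannot give a p under 0.0286 with 4 against 4 libraries. Carriers, roles, partner lists and markers were chosen with earlier results of these data known. Under the rule for named genes, 27 carriers are chosen: a set of 24, any past the test or without overlap, and the 5 with the smallest p in each direction; of each partner list, the 2 with the smallest p, and any without overlap, are named. The values of 1 carrier and 1 partner gene under this rule are not reported here, though both stay in the counts. Motifs, Adipoq, Cidea, Xist and Ddx3y, and other carriers given with their values, fall outside this rule. Alternatives were another pseudocount, other filters, other scalings, another variance model, library weights, voom, a replicate block, sex, protein-coding genes alone, each library left out, and the libraries with over 5 FPKM of Ucp1 left out. Upstream sequences were matched by symbol to RefSeq, with 40 carriers found and 11 not.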

Additional observations from a re-analysis of the deposited data

Results flagged for a closer look

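In 3 carriers, 1 library of a group lay far from the other 3, among 56 groups of 4 looked at in this way, where chance gives about 1 in 20. Slc25a23 stood at 14.3 FPKM in control 2 and at 19.8 to 20.4 FPKM in the other controls; control 2 also held the most red cell transcripts, whose part in this was not tested. Slc25a13 stood at 26.4 FPKM in cHET 3 and at 16.04 to 17.2 FPKM in the other cHET libraries, where cHET 3 also had the lowest summed atrial markers, 79.0 FPKM; their part was not tested. Slc25a44 stood at 6.79 FPKM in cHET 1 and at 7.32 to 7.38 FPKM in the others.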

How the results depend on the processing

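No carrier passed the test under any of the 22 alternatives. Of 591 values of the 27 named carriers under these alternatives, 60 had another sign than in the main analysis, spread over 14 carriers. Moves beyond the spread between replicates numbered 14, counted without Ucp3, Slc25a34, Slc25a45 and Slc25a23, which were not judged by that rule. The median difference of the tested carriers, -0.01, became 0.0818 with FPKM rescaled to a fixed library sum (0.101 over all genes), 0.0451 with the mitochondrial genome left out of the sums (0.0609 over all genes), and 0.0261 without the libraries with over 5 FPKM of Ucp1. Carriers without overlap between groups, 3 over all libraries, numbered 3 to 5 when 1 library was left out (5.92% to 11.5% of all genes) and 12 without the 3 libraries rich in Ucp1, where 25.4% of all genes do not overlap. Genes past the test over the whole table numbered 11 with library weights, and 1 each with a minimum of 5 FPKM, with a replicate block, and without the libraries rich in Ucp1. They numbered 2 to 3 when 1 library was left out. The difference of Mrps5 ran from -0.302 to 0.0412 when 1 library was left out, and was above 0 only without control 1. With the replicate number as a block, the adjusted p was 0.123 for Ucp3 and 0.137 for Slc25a34, and no carrier passed. Deviations of libraries with the same number correlated at 0.286, 0.266, 0.052 and 0.057. Numbers 1 and 2 were each other's best match and numbers 3 and 4 were not, so the numbers were not taken as pairs. With 4 libraries a group, a median standard error of 0.11 bounds what could be seen, and carriers under 1 FPKM rest on few reads.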
